A study of Mus musculus with 12 samples.

Results

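GFP-positive cells sorted after treatment with bone morphogenetic protein 4 (BMP4) were compared with untreated, unsorted cells of the same line, on 3 arrays each, which are 6 of the 12 arrays of the study. The arrays were chosen by their labels, and no measured value entered the choice. All groups were XEN cells, a stem cell line of mouse extraembryonic endoderm, with an Afp::GFP transgene, in serum-free N2B27 medium. The GFP-positive cells were given BMP4 and sorted by flow cytometry for the reporter. Beside them stood GFP-negative cells from the same kind of sort after BMP4, unsorted cells given BMP4, and the untreated cells, which were neither given BMP4 nor sorted, with 3 arrays per group. The sources used here do not give the dose and duration of BMP4, the number of clones behind the line or how the 3 replicates relate to each other, so the p-values measure only the spread between these arrays. BMP4 and the sort changed together between GFP-positive and untreated cells and cannot be told apart in that comparison. Differences of the 3 BMP4 groups from untreated cells share the same 3 untreated arrays and are therefore given side by side, with no measure of their likeness.

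The primitive endoderm of the mouse blastocyst gives rise to the visceral endoderm, an epithelium around the embryo proper, and to the parietal endoderm, which migrates along the trophoblast. The visceral endoderm takes up maternal proteins through apical receptors such as megalin, cubilin and amnionless, and secretes serum proteins, among them alpha-fetoprotein, transferrin and apolipoproteins. The parietal endoderm lays down the laminin, type IV collagen and nidogen of Reichert's membrane. BMP4 acts through serine/threonine kinase receptors that phosphorylate SMAD proteins, and the Id genes are among the best known targets of this pathway.

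Values are normalized log2 signals of the brightest detected probe of each gene, on which a difference of 1 is 2-fold. Genes were called where the p from limma, adjusted by Benjamini-Hochberg over 10597 genes, was under 0.05. The sorted arrays were dimmer before normalization: the median signal was 22.6 to 31.4 on GFP-positive, 27.7 to 32.4 on GFP-negative, 57.7 to 60.1 on unsorted BMP4 and 53.4 to 60.9 on untreated arrays. Probes detected numbered 13105 to 13745 on GFP-positive and 14103 to 14737 on untreated arrays. This gap moved with the sort, and its part in the results was not tested. Across genes, arrays of a group correlated at 0.994 or above, and GFP-positive arrays correlated at 0.992 to 0.994 with GFP-negative, 0.945 to 0.953 with unsorted BMP4 and 0.895 to 0.898 with untreated arrays. RNA came from pools of cells, so more cells expressing a gene and more RNA per cell cannot be told apart.

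Afp, which encodes alpha-fetoprotein, was highest in the cells sorted for its reporter. It was at 9.77, 9.50 and 9.46 in GFP-positive cells, at 7.20, 7.38 and 7.46 in GFP-negative cells, at 5.98, 6.15 and 5.94 in unsorted BMP4 cells and at 5.95, 5.43 and 5.12 in untreated cells, where 1 of 3 arrays detected it. The GFP-positive arrays lay above all others, the GFP-negative arrays came next, and the ranges of the unsorted BMP4 and untreated arrays just overlapped. Unsorted BMP4 cells thus lay below both sorted fractions rather than between them, and the reason was not tested. GFP-positive cells exceeded untreated cells by 4.08 ± 0.17 (SE), or 16.9-fold, with an adjusted p of 8.8e-11. They exceeded GFP-negative cells by 2.23 (adjusted p = 6.3e-06) and unsorted BMP4 cells by 3.56 (adjusted p = 1.4e-09). The reporter named after this gene was the basis of the sort, so its excess over GFP-negative cells checks the label and is no finding. The 250 bases before the Afp start site are shown because this gene defines the sorted cells, and those of Vtn, the gene of the secreted adhesion protein vitronectin, because it was called higher than in GFP-negative cells and was detected on no GFP-negative array. Both are RefSeq sequences of GRCm38.p6 on the + strand, at chr5:90490464-90490713 for Afp and chr11:78498870-78499119 for Vtn. Capitals mark GTTAAT, the letters of one arm of the site of the hepatocyte factor HNF1, or its reverse complement ATTAAC.
Afp: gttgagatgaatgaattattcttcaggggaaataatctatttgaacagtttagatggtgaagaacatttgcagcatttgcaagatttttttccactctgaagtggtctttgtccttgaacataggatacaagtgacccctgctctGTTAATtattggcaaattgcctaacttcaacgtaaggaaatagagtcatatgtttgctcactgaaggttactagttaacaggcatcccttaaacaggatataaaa
Vtn: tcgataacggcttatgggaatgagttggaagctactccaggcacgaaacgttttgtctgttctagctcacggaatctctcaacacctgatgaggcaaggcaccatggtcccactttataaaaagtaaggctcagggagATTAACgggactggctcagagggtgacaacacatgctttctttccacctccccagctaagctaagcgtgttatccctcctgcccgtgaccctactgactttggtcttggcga
In Afp the letters began at position -105 relative to the start site, and in Vtn they began at position -112 on the opposite strand. GTTAAT was present on either strand in 7.10% of 32851 promoter windows (250 bases before and 50 after a start site), in 4.17% of 9271 windows of tested genes and in 12 of the 120 named genes with a promoter entry. Ccdc80, Anxa1 and Acss1 were also called higher than in GFP-negative cells, which did not detect them, and were not among these 12. A match describes these letters only and does not show binding.

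Between GFP-positive and untreated cells 7805 genes were called, 73.7% of those tested, of which 3999 (37.7%) were higher and 3806 (35.9%) lower in GFP-positive cells. Requiring a 2-fold difference as well left 2176 genes (20.5%), 1126 higher (10.6%) and 1050 lower (9.91%). Arrays of the 2 groups did not overlap for 76.8% of genes. Scale normalization in place of quantile normalization moved the median difference of all genes to -0.14, against 0.02, and gave 2924 higher and 4457 lower calls, so small differences depend on the scaling. With so many genes called, a list of genes is described below by its counts and its median beside these shares. A probe had to be detected on 3 of the 12 arrays to be kept, so a list member may have entered through its high group alone, and a probe that was not kept does not show that its gene is silent. The plot of all genes tested shows the spread of these differences.

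**Figure D1:**
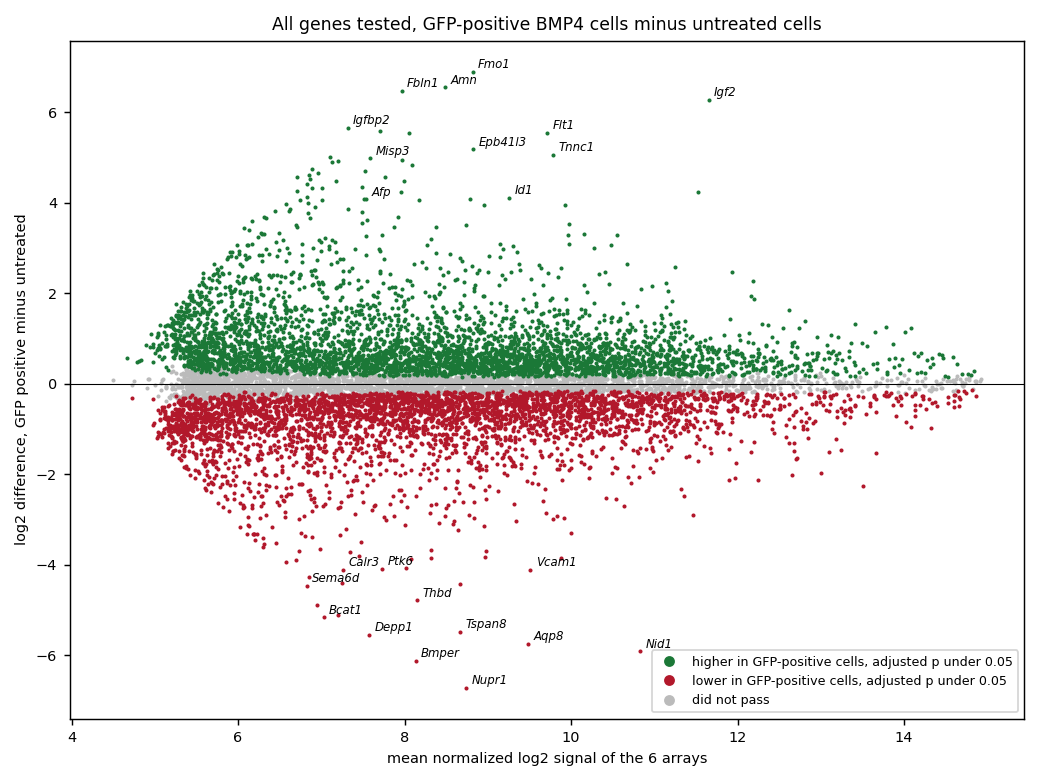
All 10597 genes tested, with the mean normalized log2 signal of the 6 arrays on the x axis and the log2 difference of GFP-positive minus untreated cells on the y axis. Green points were called higher (3999), red points lower (3806) and grey points did not pass. Points of genes undetected in a group, such as Nupr1 (at least 83.7-fold lower), are plotted at their fitted difference, which goes beyond the bound. Some named genes and features without a gene name are left unlabelled.

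The largest rises took in a detoxifying enzyme, an endocytic receptor component, matrix and growth factor genes. Fmo1, a flavin-containing monooxygenase, was at 12.25, 12.36 and 12.21 in GFP-positive cells and at 5.57, 5.56 and 4.96 in untreated cells, with 1 untreated array detecting it, and was at least 108-fold higher (adjusted p = 8.8e-14). Its other kept probe differed by 2.51. Amn, encoding amnionless, the membrane partner of cubilin, was at 11.71, 11.73 and 11.86 in GFP-positive cells and at 5.10, 5.13 and 5.42 in untreated cells, where 1 of 3 arrays detected it, at least 78.3-fold higher (adjusted p = 1.3e-14). Fbln1, the gene of the matrix protein fibulin 1, was at 11.30, 11.12 and 11.18 in GFP-positive cells and was not detected in untreated cells, at least 52.9-fold higher, with another kept probe at 1.87. In each of these genes the groups were far apart.

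Igf2, an imprinted fetal growth factor, was detected on all 12 arrays. It was at 14.81, 14.85 and 14.71 in GFP-positive cells, at 14.61, 14.66 and 14.60 in GFP-negative cells, at 11.35, 11.32 and 11.29 in unsorted BMP4 cells and at 8.61, 8.47 and 8.45 in untreated cells. Both sorted fractions stood above unsorted BMP4 cells, which stood above untreated cells, and no groups overlapped, although GFP-positive and GFP-negative cells did not pass (0.17, adjusted p = 0.22). GFP-positive cells exceeded untreated cells 77.7-fold (6.28 ± 0.07 SE, adjusted p = 1.2e-15) and unsorted BMP4 cells 11.1-fold (adjusted p = 2.7e-12). Igfbp2, which encodes a protein that binds insulin-like growth factors, was at 10.17, 10.29 and 9.98 in GFP-positive cells, at 9.31, 9.30 and 9.13 in GFP-negative cells, at 5.95, 5.69 and 5.55 in unsorted BMP4 cells and was not detected in untreated cells. It was at least 25.5-fold above untreated cells. Epb41l3, which encodes a membrane skeleton protein, was 36.4-fold above untreated cells, and Tceal5, undetected in untreated cells, was at least 17.2-fold higher. Both genes were also above unsorted BMP4 cells, by 3.66 and 3.77.

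Another set of strong rises differed less between GFP-positive and unsorted BMP4 cells. Flt1, a VEGF receptor, was at 12.63, 12.45 and 12.39 in GFP-positive cells, at 11.77, 11.44 and 11.59 in unsorted BMP4 cells and at 7.06, 6.99 and 6.75 in untreated cells, 47.0-fold above untreated. Its other kept probe differed from untreated cells by 2.37. Tnnc1, the troponin C of slow and cardiac muscle, rose by 5.06 against untreated cells and was 0.28 lower than in unsorted BMP4 cells. Apom, an apolipoprotein of high density lipoprotein, was at least 17.6-fold above untreated cells, where it was not detected. It was still 1.76 above unsorted BMP4 cells, at 7.85 there against 9.61 in GFP-positive and 10.68 in GFP-negative cells. Plac8, detected on 2 of 3 untreated arrays, and Akr1c19 were 30.8-fold and 28.5-fold higher. Misp3 was undetected in untreated cells and at least 24.3-fold higher.

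Genes with the largest falls included stress, matrix and membrane genes that were bright in untreated cells. Nupr1, a chromatin protein induced by stress, was not detected on any GFP-positive array, where it was at 5.06, 5.48 and 5.60, against 12.03, 12.04 and 12.23 in untreated cells, at least 83.7-fold lower (adjusted p = 7.4e-13). Bmper, a secreted protein that binds BMPs, was not detected in GFP-positive cells either and was at least 44.7-fold lower than in untreated cells, where it was at 11.21, 11.10 and 11.27. Nid1, which encodes the basement membrane protein nidogen 1, was detected throughout, at 7.80, 7.87 and 7.96 in GFP-positive cells, at 8.29, 8.35 and 8.58 in GFP-negative cells, at 10.70, 10.94 and 11.31 in unsorted BMP4 cells and at 13.72, 13.88 and 13.77 in untreated cells. Its fall was 60.3-fold, and the 4 groups were in order without overlap. Its other kept probe fell by 2.53.

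Aqp8, a water channel, fell by 5.74, and the tetraspanin Tspan8, detected on 2 of 3 GFP-positive arrays, by 5.49. Depp1, Bcat1, a cytosolic aminotransferase of branched chain amino acids, Mllt3, Gnai1, a G protein subunit, Sema6d, Parm1 and Calr3 were detected on no GFP-positive array and were at least 24.8-fold, 14.9-fold, 16.5-fold, 12.9-fold, 10.1-fold, 13.4-fold and 12.1-fold lower, in that order. Other kept probes of Bcat1 and Mllt3 fell by as little as 0.91 and 1.96. Vcam1, an adhesion molecule, fell by 4.12, and Ptk6, a cytosolic tyrosine kinase detected on 2 of 3 GFP-positive arrays, was at least 15.1-fold lower. Gnai1, Bcat1 and Sema6d were also undetected in unsorted BMP4 cells. Against unsorted BMP4 cells, Tspan8 and Vcam1 were lower in GFP-positive cells by 3.43 and 2.75, and Parm1 and Ptk6 at least 3.20-fold and 6.51-fold lower.

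**Figure D2:**
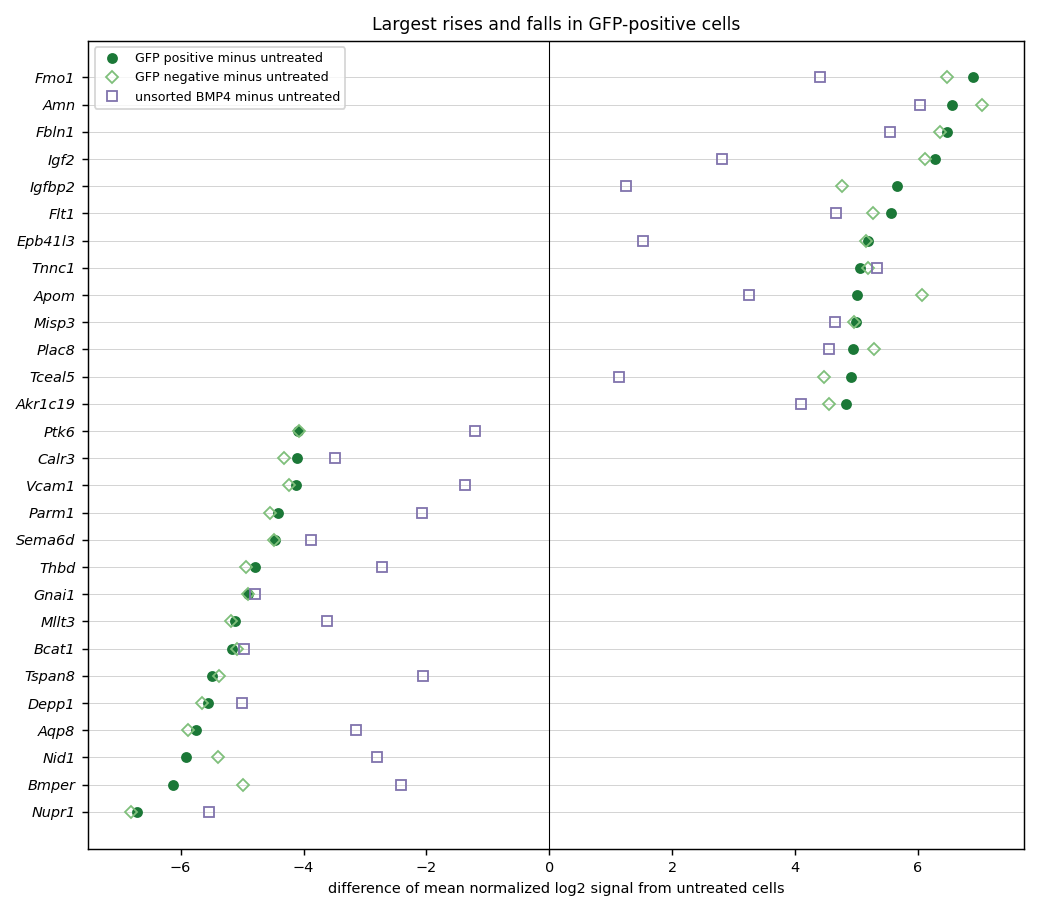
The named genes among the 15 largest rises (13 shown) and the 15 largest falls of GFP-positive against untreated cells, one gene per row, with the difference in mean normalized log2 signal from untreated cells on the x axis. Filled circles are GFP-positive cells, diamonds GFP-negative cells and squares unsorted BMP4 cells. The diamonds lie near the circles in most rows, while the squares lie closer to 0 in many rows. Among these are Igf2, Igfbp2, Epb41l3, Tceal5, Tspan8, Vcam1, Ptk6, Bmper, Parm1 and Nid1. All 3 differences share the 3 untreated arrays.

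Of 35 visceral endoderm markers listed, 28 were measured: 23 rose, 3 fell and 2 did not pass. Their median difference was 2.62, or 2.31 with genes undetected in untreated cells at their lower bound, against 0.02 for all genes. Among the uptake receptors, Lrp2, which encodes megalin, was at 9.53, 9.65 and 9.63 in GFP-positive cells and at 5.97, 6.13 and 6.30 in untreated cells, 11.1-fold higher (adjusted p = 1.3e-11). Cubn, encoding cubilin, was at 7.92, 7.77 and 7.91 in GFP-positive cells and at 5.71, 5.70 and 5.72 in untreated cells, 4.44-fold higher (adjusted p = 3.6e-10). With Amn, all 3 components of this receptor complex rose. Their adaptor Dab2 differed little: 13.22, 13.37 and 13.24 in GFP-positive cells, against 13.03, 13.12 and 13.02 in untreated cells. That difference of 0.22 passed (adjusted p = 0.011) but not with scale normalization, where it was 0.08 (adjusted p = 0.41), nor without GFP-positive replicate 2, where it was 0.17 (adjusted p = 0.055).

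Fcgrt, the receptor that carries immunoglobulin G across epithelia, was at least 4.61-fold higher, and Vil1, the microvillus protein villin, at least 5.09-fold higher. The transcription factor Hnf4a, which drives many secreted protein genes in visceral endoderm and liver, was at 9.81, 9.85 and 9.80 in GFP-positive cells, at 9.07, 8.51 and 8.84 in unsorted BMP4 cells and at 7.12, 6.83 and 6.86 in untreated cells. It rose 7.39-fold against untreated cells (adjusted p = 1.0e-10), and these 3 groups did not overlap. Foxa1 was at 7.42, 7.31 and 7.41 in GFP-positive cells and was detected in neither unsorted BMP4 nor untreated cells, at least 3.74-fold above untreated. Foxa2 fell by 0.96 and the retinol transporter gene Stra6 by 1.89. Cited1 rose by 3.95 and Tdh, threonine dehydrogenase, was at least 11.4-fold higher.

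Of the 33 genes of serum proteins and coagulation, 16 were measured, of which 14 rose, 1 fell and 1 did not pass. Neither group detected Fga, which passed, or Rbp4, which did not, so no fold is given for them. The median difference was 2.12, or 1.47 with bounds. Ttr, the carrier of thyroxine and retinol binding protein, was already bright and was at 13.31, 13.18 and 13.22 in GFP-positive cells, against 12.51, 12.60 and 12.55 in untreated cells, a rise of 0.68 (adjusted p = 3.8e-06). Trf, encoding transferrin, was at 7.82, 7.76 and 7.73 in GFP-positive cells and at 5.56, 5.64 and 5.32 in untreated cells, 4.80-fold higher with 2 of 3 untreated arrays detecting it. The protease inhibitor gene Serpina10, the alpha-1-microglobulin precursor Ambp and the plasmin inhibitor Serpinf2 were at least 10.2-fold, 6.42-fold and 2.91-fold higher. Pros1, which encodes protein S, a cofactor in anticoagulation, fell by 2.33.

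Apolipoprotein and lipid transport genes had 12 of 24 members measured, with 7 rises, 3 falls and 2 that did not pass, and a median of 1.96, or 1.44 with bounds. Apoe, of remnant lipoproteins, was at 10.74, 10.69 and 10.64 in GFP-positive cells and at 7.77, 7.49 and 7.52 in untreated cells, 8.56-fold higher (adjusted p = 3.2e-12). Untreated cells detected none of Apoa1, Apoa2 and Apob, which were higher at least 6.42-fold, 21.1-fold and 2.21-fold. Clu, a secreted chaperone, fell by 2.28 and Pltp, the phospholipid transfer protein, by 1.39.

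**Figure D3:**
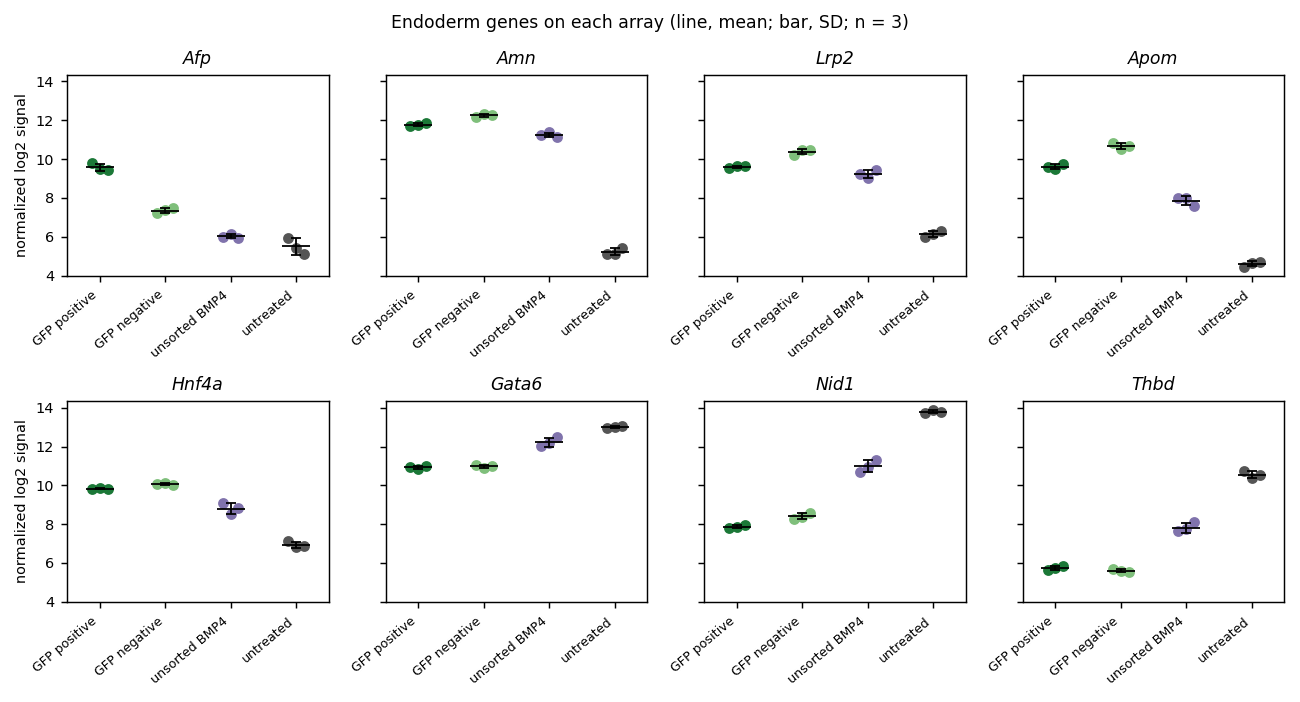
Normalized log2 signal (y axis) of 8 endoderm genes in GFP-positive, GFP-negative, unsorted BMP4 and untreated cells (x axis), with 1 point per array, a line at the mean and a bar of 1 SD (n = 3). Afp, Amn, Lrp2, Apom and Hnf4a are above untreated cells in both sorted fractions, and Gata6, Nid1 and Thbd are below. Afp separates the fractions by 2.23.

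Parietal endoderm markers went the other way: of 23 measured among 26 listed, 5 rose, 15 fell and 3 did not pass, with a median of -0.95. Thbd, encoding thrombomodulin, a surface receptor of parietal endoderm, was at 5.65, 5.77 and 5.86 in GFP-positive cells, at 7.63, 7.73 and 8.11 in unsorted BMP4 cells and at 10.75, 10.37 and 10.52 in untreated cells, a 27.6-fold fall (adjusted p = 1.5e-12), with 2 of 3 GFP-positive arrays detecting it. Gata6, Plat, the tissue plasminogen activator, and Snai1, a zinc finger factor of epithelial to mesenchymal transition, fell by 2.07, 1.94 and 2.34. The list also holds keratins that visceral endoderm shares, and Krt8, Krt18 and Krt19 rose by 0.83, 1.94 and 2.37, as did Cited1, which is on both endoderm lists, and Ccn1 by 1.62. Vim, encoding vimentin, was at 11.66, 11.81 and 11.79 in GFP-positive cells and at 11.79, 11.76 and 11.87 in untreated cells. Those arrays overlapped (difference -0.05, adjusted p = 0.49), and with scale normalization the difference was -0.19 (adjusted p = 0.048).

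Basement membrane and matrix genes divided in both directions, with 7 of 24 measured members higher, 16 lower, 1 that did not pass, and a median of -0.67. The laminin chain genes Lama1, Lamb1 and Lamc1, whose products form the trimer of Reichert's membrane, fell by 0.95, 1.86 and 1.54. Sparc, a collagen binding matrix protein, was at 13.76, 13.95 and 13.78 in GFP-positive cells and at 14.66, 14.86 and 14.91 in untreated cells, a fall of 0.98, and its other 3 kept probes fell by up to 2.02. Col4a1 differed by -0.16 and did not pass (adjusted p = 0.11). All 6 measured genes of collagen hydroxylation, P4ha1, P4ha2, P4hb, Plod1, Plod2 and Plod3, fell, by 0.42 to 2.00. Beside Fbln1, Lamb3, a chain of the laminin of epithelial attachment, was at least 7.34-fold higher, and Agrn, encoding agrin, rose by 2.59.

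Of 17 measured primitive endoderm genes, 6 rose, 7 fell and 4 did not pass, with a median of -0.18, and scale normalization gave 11 falls. The transcription factor genes Gata6, Gata4, Sox7 and Sox17 fell. Gata6 averaged 10.93 ± 0.08 in GFP-positive cells, 12.23 ± 0.23 in unsorted BMP4 cells and 13.00 ± 0.06 in untreated cells (SD, n = 3 each), a 4.20-fold fall against untreated cells (limma, adjusted p = 5.5e-10), and these groups did not overlap. Gata4 fell by 1.69, Sox7 by 1.87 and Sox17 by 0.93. All 4 remained detected on every GFP-positive array. For Sox7 the 3 kept probes ranged from -1.87 to 0.02. Cubn, Fgfr2, an FGF receptor, and the transcription factor gene Sall4 rose by 2.15, 2.66 and 1.44. Another kept probe of Fgfr2 differed by 0.75.

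Targets of BMP and SMAD signalling had 16 of 26 members measured, of which 12 were called higher and 4 lower, with a median of 0.93, or 0.62 with bounds. One of the 12, Cdx2, was detected in neither group. Id1, an inhibitor of basic helix-loop-helix factors and a direct target of BMP, was at 11.35, 11.31 and 11.28 in GFP-positive cells, at 11.59, 11.51 and 11.57 in GFP-negative cells, at 10.61, 10.42 and 10.00 in unsorted BMP4 cells and at 7.28, 7.16 and 7.16 in untreated cells. All BMP4 arrays were above all untreated arrays, and GFP-positive cells were 17.3-fold higher (adjusted p = 3.6e-12). Id2 and Id3 rose by 0.92 and 1.91, and Smad6, an inhibitory SMAD that feeds back on the pathway, rose by 2.94. Tbx3, a T-box factor, rose by 3.08. Hes1 and Fst, the gene of the activin antagonist follistatin, fell by 1.43 and 1.07, beside Bmper.

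Hamp encodes hepcidin, the iron hormone, whose liver promoter is known to respond to BMP through SMADs. It was at 6.81, 7.09 and 7.35 in GFP-positive cells, at 6.41, 6.43 and 6.59 in GFP-negative cells, at 7.28, 7.31 and 6.71 in unsorted BMP4 cells and undetected in untreated cells, at least 3.04-fold higher. Its upstream 250 bases are shown for that known response (RefSeq, GRCm38.p6, chr7:30944030-30944279, - strand, printed 5′ to 3′ on the gene's strand), with GGCGCC, a letter string of the GC-rich SMAD elements that reads the same on both strands, in capitals.
Hamp: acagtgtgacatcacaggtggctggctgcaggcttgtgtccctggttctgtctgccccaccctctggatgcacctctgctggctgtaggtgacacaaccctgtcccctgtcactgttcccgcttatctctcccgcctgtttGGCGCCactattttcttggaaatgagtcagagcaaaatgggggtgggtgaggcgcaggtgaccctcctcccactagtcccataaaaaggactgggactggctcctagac
The string began at position -109. It was in 11.9% of all promoter windows, in 21.7% of those of tested genes and in 28 of the 120 named genes with an entry (23.3%).

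The pathway's own components divided 7 higher, 6 lower and 3 that did not pass among 16 measured of 30 listed, with a median of 0.10. Smad3, which carries TGF-beta and activin signals, rose by 1.61 and the receptor gene Acvr2b by 1.30. Smad1 and Smad5, the SMADs of the BMP branch, rose by 0.92 and 1.03. The BMP receptor genes Bmpr1a and Acvr1 differed by -0.37 and -0.40 and Bmpr2 by 0.74, all called, although the kept probes of Bmpr1a were called in both directions. Bmp8a, detected on 2 of 3 GFP-positive arrays, fell by 1.12 and Twsg1, an extracellular BMP modulator, by 1.03.

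Epithelial junction and keratin genes had 14 of 21 measured members higher and 2 lower, a median of 0.74. Cdh1, encoding E-cadherin, was at 9.10, 8.84 and 8.94 in GFP-positive cells, at 8.25, 8.15 and 7.86 in unsorted BMP4 cells and at 6.27, 6.28 and 5.78 in untreated cells, 7.22-fold higher (adjusted p = 5.7e-10). The tight junction gene Cldn6 rose by 4.24, and the desmosome genes Dsg2 and Dsp by 3.80 and 2.51. Another kept probe of Dsg2 differed by 0.80. Mesenchymal and migration genes did not move the other way as a list: 12 of 20 measured members were higher and 6 lower, with a median of 0.82. Axl, a receptor tyrosine kinase, rose by 4.49, and Acta2, smooth muscle actin, was at 9.90, 10.02 and 10.03 in GFP-positive cells, at 6.82, 6.38 and 6.70 in unsorted BMP4 cells and at 7.02, 7.04 and 7.30 in untreated cells, 7.30-fold above untreated. Another kept probe of Acta2 differed from untreated cells by 1.11. Snai1 and Zeb1, which encode repressors of E-cadherin, fell by 2.34 and 2.73, while Zeb2 and Twist1 rose by 0.80 and 0.83.

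**Figure D4:**
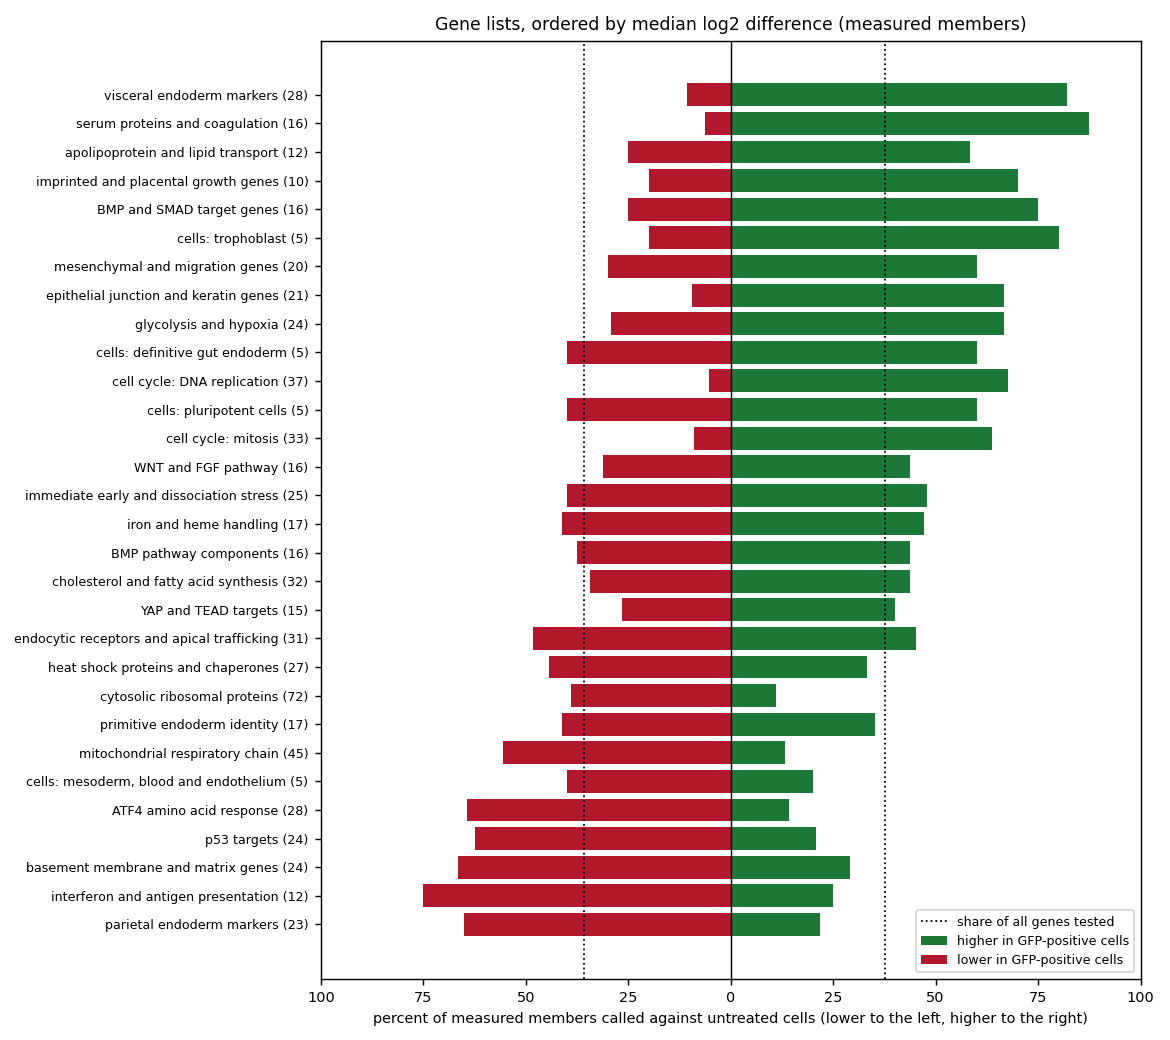
Share of measured members of each gene list that was called higher (green, to the right) or lower (red, to the left) in GFP-positive than in untreated cells, in percent, ordered by median difference, for lists with at least 5 measured members (number in brackets). Dotted lines mark the shares over all genes tested, 37.7% higher and 35.9% lower. Visceral endoderm and serum protein genes are at the top and parietal endoderm genes at the bottom.

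Imprinted and placental growth genes had 10 of 22 members measured, with 7 called higher, 2 lower and 1 that did not pass, and a median of 1.46, or 1.25 with bounds. One of the 7, Phlda2, was detected in neither group, and the kept probes of Igf2r, one of the 2, were called in both directions. With the mean of kept probes 1 member was lower. Besides Igf2, the paternally expressed genes Peg3, Peg10 and Snrpn were higher, Peg3 by 3.01, Peg10 by 1.50 and Snrpn at least 2.27-fold, with 1 of 3 untreated arrays detecting it. H19, the noncoding neighbour of Igf2, was at 11.44, 11.59 and 11.38 in GFP-positive cells, at 10.76, 11.05 and 11.04 in GFP-negative cells, at 14.08, 14.21 and 13.84 in unsorted BMP4 cells and at 11.43, 11.58 and 11.32 in untreated cells. GFP-positive and untreated arrays overlapped (0.03, adjusted p = 0.84), whereas GFP-positive cells were 2.58 below unsorted BMP4 cells (adjusted p = 7.6e-10). Cdkn1c, an imprinted cell cycle inhibitor, was also below unsorted BMP4 cells, by 1.46, and at least 3.67-fold above untreated cells.

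Cell cycle genes were mostly higher, by small steps. Of 33 measured mitosis genes 21 rose and 3 fell (median 0.38), with 1 fall without untreated replicate 2, and of 37 measured replication genes 25 rose and 2 fell (median 0.47). The mitosis gene Cdc20, the kinase gene Plk1 and the replication genes Mcm10 and Gins1 rose by 1.03, 1.02, 1.10 and 2.29. Another kept probe of Cdc20 differed by 0.26. Kif23, a kinesin of cytokinesis, fell by 2.13 at its brightest probe while another kept probe differed by 0.91, so its direction is not settled, and the median differences from unsorted BMP4 cells were -0.28 for mitosis and 0.00 for replication genes. Glycolysis and hypoxia genes had 16 of 24 measured members higher and 7 lower (median 0.58). The glucose transporter genes Slc2a1 and Slc2a3 rose by 2.28 and 1.62 and Vegfa, the vascular growth factor, by 2.45, while P4ha1 fell by 1.44.

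Iron genes other than Hamp and Trf included Hpx, the heme carrier hemopexin, which rose by 2.40 with 1 of 3 untreated arrays detecting it, and Flvcr1, a heme exporter, which rose by 1.84. The other kept probe of Hpx differed by 1.15. In all 8 of 17 measured members rose and 7 fell (median 0.10). Sterol and fatty acid synthesis genes were 14 higher and 11 lower of 32 (median 0.09), with the fatty acid synthesis gene Acaca and the sterol genes Hsd17b7 and Stard4 higher by 1.56, 1.48 and 1.14.

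Endocytic and lysosomal genes were listed together, and 14 of 31 measured members rose and 15 fell (median -0.04). Npc1, a cholesterol exporter of the lysosome, rose by 0.48. Tpp1, a lysosomal peptidase, was at 7.13, 7.09 and 6.88 in GFP-positive cells, at 8.67, 8.61 and 8.65 in unsorted BMP4 cells and at 10.19, 10.09 and 10.13 in untreated cells, an 8.57-fold fall. Hexa fell by 2.13, the cathepsin genes Ctsb, Ctsd and Ctsl by 1.00, 1.22 and 0.95, and the membrane proteins Lamp1 and Lamp2 by 0.83 and 0.95.

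Chaperones had 9 of 27 measured members higher and 12 lower (median -0.06). Among cytosolic members, Hspb1, a small heat shock protein, was at 11.52, 11.51 and 11.77 in GFP-positive cells and at 8.28, 8.26 and 8.42 in untreated cells, 9.73-fold higher, and Hsp90ab1 and Hsph1 rose by 1.14 and 1.66. Hspa1a, an inducible cytosolic member, was detected on no GFP-positive array and was at least 1.99-fold lower. Among members of the endoplasmic reticulum, the calcium binding chaperone gene Calr was at 9.96, 10.13 and 9.96 in GFP-positive cells and at 12.81, 12.97 and 12.95 in untreated cells, a 7.45-fold fall, and Pdia3, Pdia4, Pdia6 and Hspa5 fell by 1.50, 1.21, 1.72 and 1.18.

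Genes of the ATF4 amino acid response were mostly lower, 18 of 28 measured against 4 higher (median -0.44), of which scale normalization left 1 higher. After Nupr1 and Bcat1, the glutathione degrading enzyme gene Chac1 fell by 2.62 and Slc6a9, a glycine transporter, was at least 2.29-fold lower. Atf4 itself differed by -0.05 and did not pass. p53 targets were 15 lower and 5 higher of 24 (median -0.56, or -0.30 with bounds), with 3 higher after scale normalization. Among them, Plk2, Sesn2 and Bax fell by 2.39, 2.14 and 1.71. Cdkn1a, the best known of them, differed by 0.10 and did not pass. Interferon and antigen presentation genes had 12 of 29 members measured, 3 higher and 9 lower (median -0.76, or -0.49 with bounds). Ifitm1, which marks early germ cells as well as interferon responses, was at least 12.6-fold higher, while H2-D1, a class I histocompatibility gene, fell by 1.65.

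Immediate early genes, which cell dissociation can induce, did not move together: 12 of 25 measured members were higher and 10 lower (median 0.16). Fos was at 7.40, 7.34 and 7.50 in GFP-positive cells and at 8.29, 8.30 and 8.22 in untreated cells, a fall of 0.86. Egr1 was at 7.71, 7.32 and 7.77 in GFP-positive cells, at 8.67, 8.42 and 8.95 in GFP-negative cells and at 8.25, 8.04 and 7.46 in untreated cells. GFP-positive and untreated arrays of Egr1 overlapped (-0.32, adjusted p = 0.14). The difference passed without untreated replicate 3 (-0.55, adjusted p = 0.0086) and with scale normalization (-0.52, adjusted p = 0.027). Atf3, Dusp1 and Ier3 rose by 2.31, 2.76 and 1.63, and Junb and Zfp36 fell by 1.23 and 1.16. The part of the sort in these genes cannot be told apart from that of BMP4.

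Respiratory chain genes were 6 higher and 25 lower of 45 (median -0.23), and scale normalization left 2 higher. Ndufb9 and Sdhd fell by 0.92 and 0.88. Cytosolic ribosomal protein genes were 8 higher and 28 lower of 72 (median -0.11), with 4 higher after scale normalization, and Rpl13a fell by 0.86. No member of either list differed between GFP-positive and GFP-negative cells at this threshold, where 5.39% of all genes did.

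WNT and FGF pathway genes were 7 higher and 5 lower of 16 measured (median 0.18), with 4 higher after scale normalization. Axin2, a feedback target of WNT signalling, was at 5.07, 4.90 and 5.16 in GFP-positive cells, undetected, against 7.48, 7.56 and 7.54 in untreated cells, at least 3.51-fold lower. Fgf10, an FGF ligand, and Dusp6, a phosphatase induced by FGF signalling, were undetected in GFP-positive cells as well and were at least 4.84-fold and 2.23-fold lower. Targets of YAP and TEAD were 6 higher and 4 lower of 15, and 6 higher and 7 lower with the mean of kept probes. Ccn2 fell by 2.25 while its relative Ccn1 and Ankrd1 rose by 1.62 and 1.70. Of 3 measured anterior visceral endoderm markers, Hhex, a homeobox factor, rose by 2.18, the WNT inhibitor Dkk1, detected on 1 of 3 GFP-positive arrays, fell by 1.51, and Fzd5 did not pass. Without GFP-positive replicate 3, 2 of the 3 were higher and 1 lower.

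GFP-positive cells differed far less from GFP-negative cells, which had BMP4 and the sort in common with them. There 571 genes were called, 5.39% of those tested, with 325 higher (3.07%) and 246 lower (2.32%), and 40 by at least 2-fold (0.377%), 27 of them higher (0.255%) and 13 lower (0.123%). The number of calls rested on single arrays: it was 290 without GFP-positive replicate 1, 358 without GFP-positive replicate 2, 308 without GFP-negative replicate 2 and 346 without GFP-negative replicate 3. Among genes with a name also called against untreated cells, the 8 largest excesses took in Afp, Vtn, Spp2, Trf, Ccdc80, Anxa1, Acss1 and Krt20. They were ranked by fitted difference, and their order is not settled, since GFP-negative cells did not detect Vtn, Ccdc80, Anxa1 or Acss1. Vtn was at 6.98, 6.78 and 6.75 in GFP-positive cells and undetected in GFP-negative and untreated cells, at least 2.15-fold above GFP-negative cells (adjusted p = 6.3e-06). Spp2, encoding a secreted phosphoprotein of plasma, was at 9.43, 9.22 and 9.20 in GFP-positive cells, at 7.60, 7.38 and 7.44 in GFP-negative cells, at 5.78, 6.07 and 5.90 in unsorted BMP4 cells and undetected in untreated cells, 3.51-fold above GFP-negative cells.

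Trf was 1.76 above GFP-negative cells and Krt20, a keratin of differentiated epithelium, 1.38 above. Anxa1, a membrane binding annexin, and Acss1, the mitochondrial acetyl-CoA synthetase, were at least 2.14-fold and 1.38-fold higher than in GFP-negative cells, which detected neither. Acss1 was nevertheless lower in GFP-positive than in untreated cells, by 2.34. Ccdc80, which encodes a secreted matrix protein, was at 7.16, 6.92 and 6.86 in GFP-positive cells, undetected in GFP-negative cells, and at least 2.38-fold higher.

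Genes lower in GFP-positive than in GFP-negative cells included Apom, which was at 9.61, 9.49 and 9.74 in GFP-positive cells and at 10.81, 10.54 and 10.69 in GFP-negative cells, 1.06 lower (adjusted p = 0.00017) although both fractions were far above untreated cells. Bmper was at least 1.41-fold lower and Phlda2, an imprinted placental growth gene, at least 2.15-fold lower, and neither was detected in GFP-positive cells. The kinase gene Tnk1 and the amino acid transporter gene Slc7a8 were at least 1.72-fold and 1.91-fold lower. Adora2b, an adenosine receptor detected on 2 of 3 GFP-positive arrays, Rgl1 and Rcan2, a calcineurin regulator, were lower by 1.54, 1.16 and 1.05. The plot of the genes that differed most between the fractions, among those also called against untreated cells, shows each array.

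**Figure D5:**
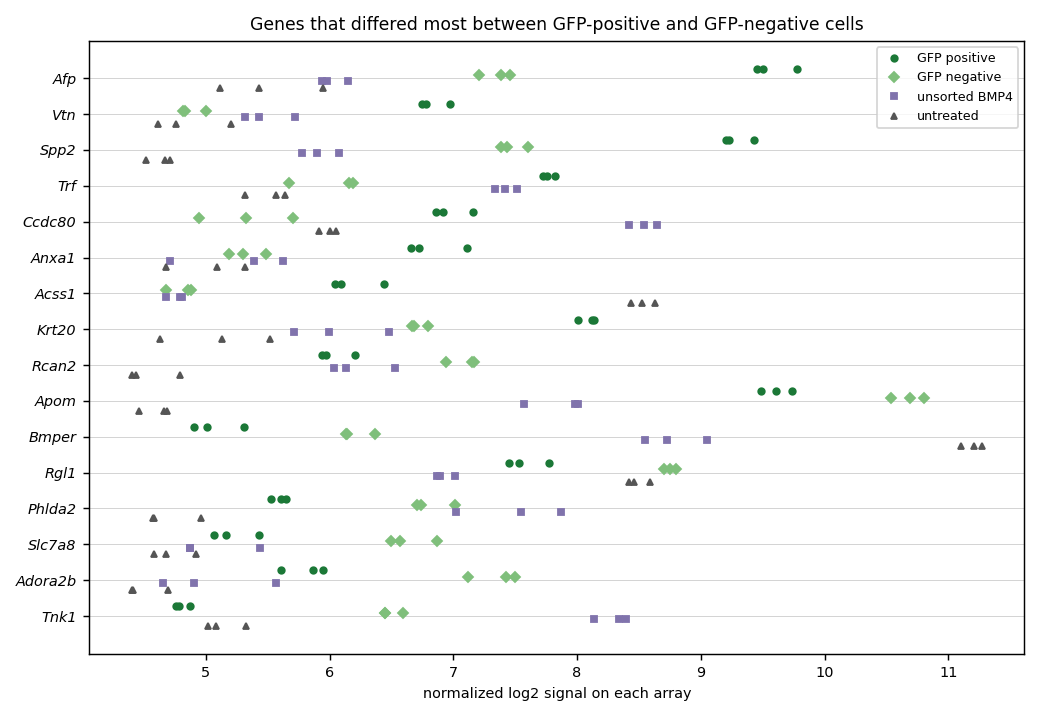
The 8 genes furthest above and the 8 furthest below in GFP-positive against GFP-negative cells, one per row. Each had a gene name and was called in that comparison and also against untreated cells. Genes that did not pass against untreated cells, such as Egr1, could not enter. The x axis is the normalized log2 signal of each array. Circles are GFP-positive, diamonds GFP-negative, squares unsorted BMP4 and triangles untreated arrays (n = 3 each). Circles and diamonds do not overlap in any of the 16 rows (27.4% of all genes did not overlap). Rows are ordered by the fitted difference, and values of undetected probes, such as those of Tnk1 in GFP-positive cells, are at background.

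Of the 28 visceral endoderm markers measured, 7 were higher and 9 lower in GFP-positive than in GFP-negative cells, with a median of -0.04. The uptake genes Amn, Lrp2, Cubn and Dab2 were lower, by 0.49, 0.77, 0.77 and 0.28, and Tdh, Spink1 and Apoe by 0.54, 0.59 and 0.34. The secreted protein genes Apoa1 and Apoa2 were higher, by 0.61 and 0.52, as was Foxa1 by 0.75, and Apob, detected on 1 of 3 GFP-negative arrays, was at least 1.81-fold higher. In the serum protein list 8 of 16 were higher and 2 lower (median 0.42). The 8 included Afp, whose reporter was the basis of the sort, so its part in this count is no finding. Among the others, Hpx and Proc, protein C, were higher by 1.12 and 0.64. F10, coagulation factor X, was lower by 0.97. Hnf4a, Cdh1, Id1 and Gata6 did not pass between the fractions, with differences of -0.27, 0.15, -0.24 and -0.05. No mitosis gene was higher in GFP-positive than in GFP-negative cells and 1 of 33, Tpx2, was lower, and no replication gene passed. Of all genes tested, 3.07% were higher and 2.32% lower in this comparison, so these cell cycle counts are near those shares.

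Against unsorted BMP4 cells, which had BMP4 but no sort, 6996 genes were called, 66.0% of those tested, with 3456 higher (32.6%) and 3540 lower (33.4%), and by at least 2-fold 1209 (11.4%), 763 higher (7.20%) and 446 lower (4.21%). Arrays did not overlap for 68.6% of genes. Scale normalization gave 2403 higher and 4360 lower calls. In this comparison the sort and the dimmer arrays changed together and cannot be told apart. The labels do not say whether the unsorted cells came from the cultures that were sorted. For some genes unsorted BMP4 cells lay outside both fractions. Igf2 averaged 11.32 there, against 14.79 in GFP-positive and 14.62 in GFP-negative cells, and Snai1 9.81, against 6.78 and 6.65. The reason was not tested, and the calls cannot be assigned to the sort alone. Visceral endoderm markers were 20 higher and 4 lower of 28 (median 0.51) and parietal markers 7 higher and 14 lower of 23 (median -0.34). Cdx2, a homeobox factor of trophoblast and gut, was at 7.77, 7.82 and 7.86 in unsorted BMP4 cells and was detected on no sorted and no untreated array, at least 4.29-fold lower in GFP-positive cells. Socs3, a cytokine feedback gene, was 1.92 lower and Junb 2.33 lower than in unsorted BMP4 cells.

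Markers of other cell types were few. None of 9 fibroblast and none of 9 neural markers had a kept probe. Of the 14 pluripotency genes 5 were measured, with 3 higher and 2 lower (1 higher after scale normalization, and 1 lower with detection required on 6 arrays), and the probes of Pou5f1 and Nanog were detected on no array. The summed linear signal of the 5 was 1867 to 1980 on GFP-positive and 2739 to 3365 on untreated arrays. Trophoblast genes had 5 of 14 measured, 4 called higher, of which neither group detected Cdx2, and 1 lower, with sums of 3461 to 3731 on GFP-positive and 1530 to 1649 on untreated arrays. Plac1 was at least 5.02-fold higher and Ets2 rose by 1.44, while Gata3 fell by 1.64 and Eomes and Elf5 were detected on no array. For mesoderm, blood and endothelium 5 of 17 were measured, 1 higher and 2 lower (4 lower after scale normalization), with Flt1 higher, Cdh5 (detected on 1 of 3 GFP-positive arrays) and Tek lower by 2.65 and 1.80, and T, Kdr, Pecam1 and Ptprc detected on no array. Their sums were 6149 to 7116 on GFP-positive and 2362 to 2530 on untreated arrays. The median difference of the 5 was -0.27 and only Flt1 was called higher, so the larger sum does not describe most members. Gut endoderm genes had 5 of 12 measured, 3 called higher, Cdx2 among them, and 2 lower, led by Cpm, a carboxypeptidase, at 4.09 and Foxa3 at 2.65, with Pdx1 and Sftpc detected on no array. Their sums were 6516 to 6582 on GFP-positive and 5823 to 6913 on untreated arrays. The part of other cell types in the results was not tested.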

How the data were processed

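Expression was measured on 12 Illumina mouse bead arrays, 3 for each of 4 groups taken from the sample labels. The deposited unnormalized table holds a probe intensity per array, exported by the authors with BeadStudio 3.4.0 per the file headers. The detection column deposited beside it is a fraction; bright probes have 1 there, so it was read as 1 minus the detection p, which the header does not state. The authors' processed table, of 20178 probes, is on the log2 scale by its values; the submitters' processing notes name lumi, and its normalization method is not given in the sources used here. It served only as an alternative. The number of arrays, and for dim probes their distance from background, limits the precision.

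Intensities were background corrected with limma 3.58.1 in R 4.3.3 (normexp on detection p, offset 16), put on the log2 scale and then quantile normalized. The filter kept 15448 of 45281 probes, those with a detection p under 0.01 on 3 or more arrays, and the brightest kept probe stood for each of 10597 genes. In 353 genes kept probes were called in opposite directions. Symbols were updated through RefSeq (13430 identifiers unchanged, 8112 by synonym, 9948 as given). Group means of all 12 arrays were fitted with lmFit and eBayes, and p-values were adjusted by Benjamini-Hochberg over all genes. The fit was tested on simulated data.

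Where the dim group was undetected, or detected on fewer than 3 arrays with a mean under the detection level, a lower bound replaced the fold: the brighter mean against, per array, the higher of the lowest detected signal and the dim value. The second case was added after the data were seen.

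Named genes were the 15 largest rises and falls with arrays that did not overlap, a gene name and detection on all arrays of the higher group, up to 4 called members of each list with the largest differences, a fixed set of endoderm, BMP and stress genes, and 8 genes in each direction against GFP-negative cells. The genes taken against GFP-negative cells had a gene name and were called both in that comparison and against untreated cells. Ranks used fitted differences, so the order of undetected genes is not settled. Some of these are not reported here. Further list members were named after their values were seen. The members and lists were chosen with earlier results of these data known. Alternatives changed the background correction, offset, normalization, detection filter, probe rule, array weights, arrays in the fit, threshold, replicate block, the table used, and each array left out in turn.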

Additional observations from a re-analysis of the deposited data

Results flagged for a closer look

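Ccdc80 was above untreated cells in GFP-positive cells and below them in GFP-negative cells. It was at 7.16, 6.92 and 6.86 in GFP-positive cells, at 5.70, 5.32 and 4.94 in GFP-negative cells, where no array detected it, and at 5.92, 6.05 and 6.01 in untreated cells. GFP-positive cells differed from untreated cells by 0.99. The fitted differences were -0.67 for GFP-negative minus untreated cells and 1.66 ± 0.15 for GFP-positive minus GFP-negative cells (SE, limma, adjusted p = 4.1e-05). Both rest on GFP-negative values at background, so the size that was measured is the bound, at least 2.38-fold higher in GFP-positive than in GFP-negative cells. Unsorted BMP4 cells were at 8.54, 8.42 and 8.65, above both fractions.

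Snai1 was lower in GFP-positive cells and higher in unsorted BMP4 cells than in untreated cells. It was at 6.73, 6.76 and 6.87 in GFP-positive cells, at 9.56, 9.90 and 9.96 in unsorted BMP4 cells and at 9.15, 9.28 and 8.95 in untreated cells. The differences from untreated cells were -2.34 and 0.68, and GFP-positive minus unsorted BMP4 was -3.03 ± 0.11 (SE, limma, adjusted p = 1.5e-10). Groups of 3 arrays were not tested for single arrays that stand apart.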

How the results depend on the processing

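Afp kept its direction and passed under every alternative run, between 3.32 (offset 50) and 4.29 (without untreated replicate 1), and no named gene reversed. Counts of calls and list members were not scored for reversal. Scale normalization changed 3999 higher and 3806 lower calls against untreated cells to 2924 higher and 4457 lower. Of 154 named genes, 148 kept their side of the threshold against untreated cells under every alternative. Beside Dab2, Egr1 and Vim, 3 changed: Klf2 was lost under scale normalization, Slc7a8 without GFP-positive replicate 3 and Tnk1 at offset 50. Of 930 recomputed list counts, 14 moved by over 1.5 times.

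Against untreated cells, calls numbered 2176 with a difference of at least 1 on the log2 scale, 12210 probes in the deposited processed table and 7444 to 7534 with 1 array left out. Against GFP-negative cells, 571 calls became 240 at an adjusted p under 0.01, 40 with a difference of at least 1, 918 with array weights, 287 under scale normalization and 290 to 440 with 1 array left out. Against unsorted BMP4 cells they were 1209 with a difference of at least 1, 10661 probes in the processed table and 6466 to 6816 with 1 array left out. The counts under stricter rules are smaller by definition, and the probe counts come from another table. The cause of the change with weights, scaling or 1 array left out was not tested.

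With the replicate block, 7784, 503 and 6953 genes were called in the 3 comparisons, and Afp stayed at 4.08. Same-numbered GFP-positive and untreated arrays deviated together at correlations of only 0.076, 0.055 and 0.024, so the numbers were not taken as pairs, although each array correlated best with its own number. Dim probes limit the bounds: a gene undetected in 1 group has no measured fold.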
